A study of Homo sapiens with 6 samples.

Results

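The ID family comprises 4 human genes, ID1, ID2, ID3 and ID4 (inhibitors of DNA binding), and all 4 were represented here, by 6 probe sets on 6 arrays of colon fibroblasts. ID2 signal was higher and ID1, ID3 and ID4 signals were lower in cells given sonic hedgehog than in untreated cells. A probe set was taken as a member where either gene symbol column of the authors' deposited list of changed probe sets (those with p no higher than 0.05, 4.41% of all) gave one of these 4 symbols. That list gives an unambiguous name to 1645 genes, and the arrays hold 54613 probe sets. The authors' p comes from this same comparison, so the members were chosen by their difference between the groups. Their levels and differences are therefore given as a description, and where limma's calls of the members are counted below, the count stands beside that over all probe sets and nothing is read from it. The authors' deposited p-values of the 6 probe sets ran from 0.00294 to 0.0434, and the q-values beside them in the authors' deposited table, which account for the number of probe sets, from 0.589 to 0.999. The names end at the threshold, where the largest named p of any gene in the authors' deposited table is 0.0499 and the smallest unnamed p lies just above 0.05, so any ID probe set with a larger p, just outside the threshold or far from it, is not analysed here.

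ID proteins are helix-loop-helix proteins that lack the basic region with which other members of that class contact DNA. They pair with the E proteins, the common partners of tissue-specific basic helix-loop-helix factors, and so keep these from binding DNA. ID genes are known as direct targets of bone morphogenetic protein (BMP) signalling through SMAD1 and its relatives, and in the gut mesenchyme the hedgehog ligands secreted by the epithelium are known to act on fibroblasts and smooth muscle, in part through BMP ligands.

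The cells were CCD-18Co, an established line from human colon labelled as fibroblasts, described in the design text as primary myofibroblasts and kept with 0.1% bovine serum albumin. The SHH group had 3 biological replicates given SHH (sonic hedgehog, the secreted ligand) at 1 ug/ml for 72 h, and the untreated group had 3 replicates, called vehicle in the submitters' readme, for which no culture time is given. All cells come from a single line, so the replicates carry no spread between donors. Each array gave a signal on a linear scale for 54613 probe sets, the array medians ran from 94.4 to 111, and 3 arrays a group bound how precise any value can be. PTCH1, the hedgehog receptor and a classical target of the pathway, rose by 2.64 ± 0.11 on the log2 scale (± is the moderated SE from limma, 3 arrays per group; limma adjusted p = 0.0249). PTCH1 was not called without any single array, with a pseudocount of 1 or with the replicate number as a block (limma adjusted p = 0.434). Its difference stayed between 2.60 and 2.73 under the alternatives run. GLI1, the transcription factor at the end of the pathway, had a log2 difference of 2.52 ± 0.38 and did not pass (limma adjusted p = 0.110). It did pass where limma's prior spread was allowed to depend on brightness (limma adjusted p = 0.00355). Of 11 fibroblast markers 5 had a name, none of 6 endothelial markers did, and the 1 named epithelial marker of 8 was KRT18. A name required an authors' p of at most 0.05 in this comparison, so these counts do not show which markers the cells expressed.

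The sequences upstream of the 4 genes are shown, and whether they have a part in the direction of any member was not tested. These sequences are the 250 bases before each RefSeq start (GRCh38.p14), 5′ to 3′ on the gene's strand, with matches to the motifs searched in capitals.
ID1, chr20:31605039-31605288, plus strand: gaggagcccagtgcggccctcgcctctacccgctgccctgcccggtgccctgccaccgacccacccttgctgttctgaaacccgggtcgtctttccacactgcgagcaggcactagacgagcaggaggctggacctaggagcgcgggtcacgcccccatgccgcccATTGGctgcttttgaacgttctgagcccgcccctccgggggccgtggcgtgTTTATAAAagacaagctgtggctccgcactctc
ID2, chr2:8681806-8682055, plus strand: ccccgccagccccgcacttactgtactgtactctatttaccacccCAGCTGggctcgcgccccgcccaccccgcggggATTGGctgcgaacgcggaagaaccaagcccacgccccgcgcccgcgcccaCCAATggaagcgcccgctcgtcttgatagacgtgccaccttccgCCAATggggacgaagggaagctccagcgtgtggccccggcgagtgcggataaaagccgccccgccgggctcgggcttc
ID3, chr1:23559502-23559751, minus strand: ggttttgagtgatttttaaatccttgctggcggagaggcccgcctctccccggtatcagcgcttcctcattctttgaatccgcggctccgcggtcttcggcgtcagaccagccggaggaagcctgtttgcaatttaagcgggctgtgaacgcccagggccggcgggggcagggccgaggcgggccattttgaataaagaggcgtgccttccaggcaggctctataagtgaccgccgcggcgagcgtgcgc
ID4, chr6:19837120-19837369, plus strand: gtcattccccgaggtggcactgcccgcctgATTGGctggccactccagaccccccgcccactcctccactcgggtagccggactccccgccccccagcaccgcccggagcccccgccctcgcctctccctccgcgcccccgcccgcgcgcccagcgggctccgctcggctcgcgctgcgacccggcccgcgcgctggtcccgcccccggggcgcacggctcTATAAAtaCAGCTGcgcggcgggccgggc
Motifs were searched on both strands in these 250 bases, and the share of all 35116 RefSeq promoters of the same length that hold each one is given. The TATA box letters TATAAA occurred upstream of ID1, where the match on each strand overlaps the other, and of ID4, and in 10.7% of all promoters. The ID1 match nearest the start begins 31 bases before it and the ID4 match 29 bases before it. The CCAAT box letters CCAAT occurred at 3 places upstream of ID2, at 1 place each upstream of ID1 and ID4 and at none upstream of ID3, against 32.0% of all promoters with a match. The E-box CANNTG, the kind of site that E proteins bind, occurred once upstream of ID2 and once upstream of ID4, each time as CAGCTG, and in 61.8% of all promoters. The GLI element GACCACCCA (0.199% of promoters), the SMAD elements GGCGCC (16.4%) and GTCTAGAC (0.182%) and the cyclic AMP response element TGACGTCA (1.65%) had no match in these windows of the 4 genes. Elements of the ID genes farther from the start lie outside these windows. The share of G and C in the 250 bases was 66.0% for ID1, 69.2% for ID2, 62.0% for ID3 and 78.8% for ID4.

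ID2 was the member with higher signal in the SHH group. Its brighter probe set (201565_s_at) read 3861, 3868 and 4446 on the untreated arrays and 6186, 6418 and 5450.0 on the SHH arrays. All 3 SHH arrays lay above all 3 untreated arrays, and the nearest of them were 1004 signal units apart. Mean ID2 signal was 4058 ± 336 untreated and 6018 ± 505 with SHH (SD, n = 3), which is 1.48 times the untreated mean and a log2 difference of 0.57. Differences here are of mean log2(signal + 16), SHH minus untreated.

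The dimmer ID2 probe set (201566_x_at) read 554, 646 and 517 untreated and 931, 1133 and 1202 with SHH. Its groups did not overlap either, and its log2 difference was 0.91, larger than that of the brighter probe set by more than the pooled log2 SD of either (0.12 and 0.18). The array design marks probe sets with the suffix _x_at as ones whose probes may match other transcripts as well. Both ID2 probe sets were thus higher with SHH, by different amounts. Array replicate 3 of the SHH group was the lowest of its group by the brighter probe set and the highest by the dimmer one. In a bulk culture, more cells that carry a transcript and more transcript per cell cannot be told apart, and the same holds for lower signals.

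ID1, the member best known as an immediate target of BMP signalling, had lower signal in the SHH group. Its 1 named probe set (208937_s_at) read 788, 664 and 699 on the untreated arrays and 357, 381 and 415 on the SHH arrays. The lowest untreated array was 249 signal units above the highest SHH array. Mean ID1 signal was 717 ± 63.9 untreated and 384 ± 29.2 with SHH (SD, n = 3), or 0.536 times the untreated mean, and the log2 difference was -0.87.

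ID4, known from neural and mammary cells, was lower by nearly the same amount. Its brighter probe set (209291_at) read 1023, 818 and 952 untreated and 590.4, 445 and 515 with SHH, without overlap. The means were 931 ± 104 and 517 ± 72.8 (SD, n = 3), 0.555 times the untreated mean, with a log2 difference of -0.83. The second ID4 probe set (209292_at), for which the authors' annotation marks a position 3' of the gene, was dim, at 234, 219 and 215 untreated and 141, 147 and 99.8 with SHH. It too did not overlap between the groups, and its log2 difference was -0.73. That probe set had the most uneven spread of the 6, with a log2 SD of 0.06 in the untreated and 0.27 in the SHH group, where replicate 3 was the lowest array.

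ID3, whose product is closely related to ID1 and which is known to be induced with it by BMP ligands, differed least. Its 1 named probe set (207826_s_at) read 2075, 2028 and 2250 untreated and 1671, 1828 and 1738 with SHH. The groups did not overlap, but the nearest arrays were 200.3 signal units apart. Mean ID3 signal was 2118 ± 117 untreated and 1745 ± 78.9 with SHH (SD, n = 3), 0.824 times the untreated mean, with a log2 difference of -0.28. With each array centred on its median log2 signal, which moves the median difference of all probe sets by 0.09, the ID3 difference was -0.19. Among all 54613 probe sets, 22.5% had a difference as low as that of ID3 or lower. For ID1 that share was 2.32% and for the brighter ID4 probe set 2.79%, and 4.63% were as high as the brighter ID2 probe set or higher.

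**Figure D1:**
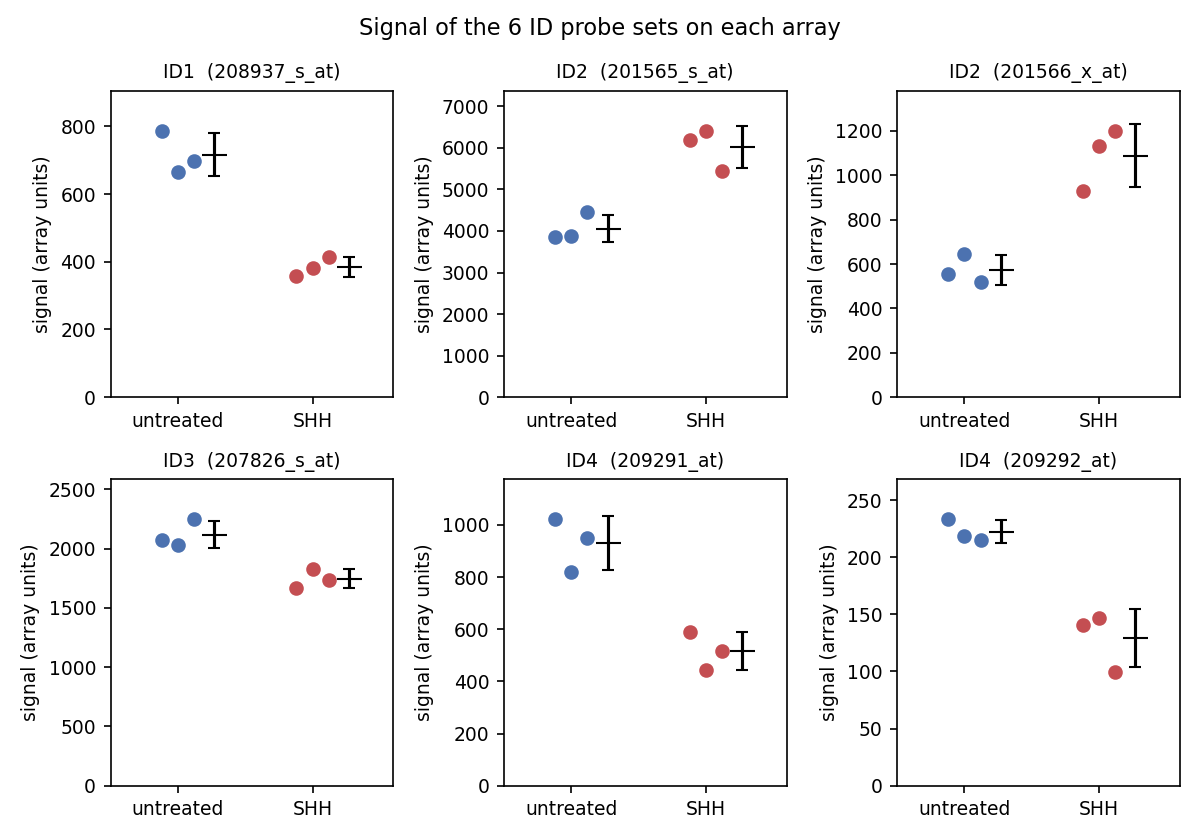
Signal in array units on a linear axis from 0 (vertical) for each of the 6 ID probe sets in the untreated and SHH groups (horizontal); each point is 1 array and the bar beside it is the group mean ± SD (n = 3). Both ID2 panels have all 3 SHH arrays above the untreated arrays, and the ID1, ID3 and ID4 panels have them below, with the narrowest relative gap for ID3.

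The groups did not overlap for 6 of the 6 ID probe sets, beside 17.3% of all probe sets on the arrays (6.97% higher and 10.3% lower with SHH), and this count follows in part from the way the members were chosen. None of the 6 passed limma's adjusted threshold of 0.05, beside 0.123% of all probe sets. With an intensity trend in limma, which lets the prior spread depend on brightness, 4 of the 6 passed, beside 1.86% of all. Those 4 were ID1, both ID2 probe sets and the brighter ID4 probe set. ID3 and the dim ID4 probe set did not pass with the trend. With a pseudocount of 64 it was ID1 alone, 1 of 6 beside 0.54% of all, and among probe sets with a mean signal of 100 or more it was ID1, the dimmer ID2 and the brighter ID4 probe set, 3 of 6 beside 1.95%. Because the rule used this same comparison, nothing is read from these counts. All 6 probe sets had a mean signal of 100 or more, and each was above the array median on every array.

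Ratios of 2 ID genes within an array do not depend on how the arrays were scaled, apart from the pseudocount. Each ratio was set to a mean of 0 in the untreated group on the log2 scale, and by the brightest probe set of each gene. The ratio of ID2 to ID1 was -0.21, 0.04 and 0.17 on the untreated arrays and 1.58, 1.54 and 1.19 on the SHH arrays. The mean shift of 1.44 is a 2.71-fold change of the ratio. The ratio of ID2 to ID4 shifted by 1.40 and that of ID2 to ID3 by 0.84, in each case without overlap of the groups. The ratios of ID1 to ID3 and of ID4 to ID3 shifted by -0.60 and -0.56, also without overlap. Only the ratio of ID1 to ID4, among the 6 pairs computed, overlapped between the groups, with a shift of -0.04, an SD of 0.07 in the untreated and of 0.26 in the SHH group. Since all members were chosen by their difference in this comparison, with ID2 higher and the others lower, the lack of overlap for the ratios with ID2 is largely fixed by that choice, and the ratios are a description only.

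**Figure D2:**
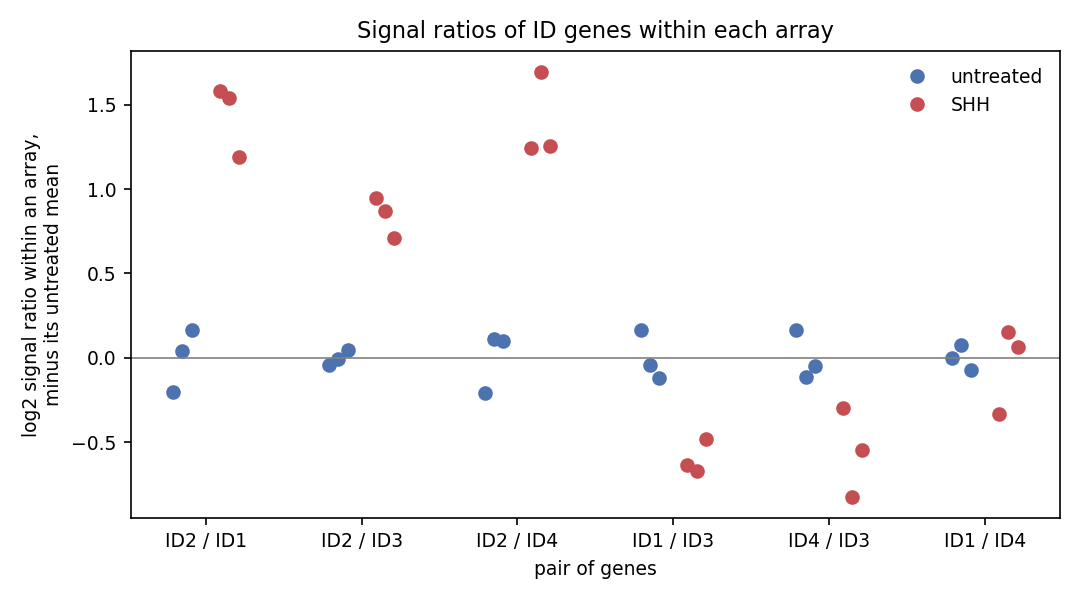
Log2 ratio of the signals of 2 ID genes within an array, minus the mean of that ratio over the untreated arrays (vertical), for 6 pairs of genes (horizontal); each point is 1 array. The 3 SHH arrays lie between 0.71 and 1.70 for ID2 over ID1, ID3 or ID4, between -0.82 and -0.30 for ID1 or ID4 over ID3, and on both sides of 0 for ID1 over ID4.

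The partners and relatives of the ID proteins were followed through a list of 31 E proteins and other basic helix-loop-helix factors, of which 3 had a name and none passed limma's adjusted threshold. For these and the genes below, a name likewise required an authors' p of at most 0.05 in these samples, so the named members are no independent sample of their list. The E protein gene TCF3, whose products E12 and E47 are classical partners of ID proteins, had signals of 1047, 1119 and 1004 untreated and 717, 928 and 756 with SHH. Its groups did not overlap, and it lay at -0.40 ± 0.14 on the log2 scale (limma adjusted p = 0.439). ATOH8, a basic helix-loop-helix factor also known as a BMP target, lay at -0.52 ± 0.11 (limma adjusted p = 0.203, and 0.0128 with the intensity trend). BHLHE41, a repressor of the circadian clock, lay at 0.68 ± 0.12 (limma adjusted p = 0.149, and 0.0717 with the trend). The other E protein genes of the list, TCF4 and TCF12, had no name here. Of 10 HES and HEY factors, repressors downstream of Notch, HES1 alone had a name. HES1 signal was 275 ± 34.4 untreated and 625 ± 61.1 with SHH (SD, n = 3). Its log2 difference was 1.14 ± 0.14 (limma adjusted p = 0.0757, and 0.00173 with the intensity trend). Of 8 ETS and PAX factors that ID proteins are known to bind, ETS1 and ETS2 had a name, both with higher signal. They lay at 0.38 ± 0.12 and 0.75 ± 0.13 (limma adjusted p = 0.396 and 0.135, and 0.0486 and 0.00193 with the intensity trend).

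Among 21 BMP and related ligands 3 were named: 1 was higher, 2 were lower, and limma called none of them. BMP2, a ligand that induces ID genes, read 1186, 1325 and 1329 on the untreated arrays and 2353, 2458 and 2252 on the SHH arrays, a log2 difference of 0.87 ± 0.11 (limma adjusted p = 0.0761). BMP6, another such ligand, read 2556, 2442 and 2682 untreated and 1320, 1320 and 1416 with SHH, a log2 difference of -0.91 ± 0.11 (limma adjusted p = 0.0649). These ligands thus lay on opposite sides of 0, and both passed with the intensity trend (limma adjusted p = 3.50e-04 for BMP2 and 1.71e-04 for BMP6). TGFB2 lay at -0.45 ± 0.14 (limma adjusted p = 0.386).

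Of 21 receptors, SMAD factors and their regulators 5 had a name, 2 higher and 3 lower. TGFBR3, the co-receptor betaglycan, which binds BMP and TGF-beta ligands, rose by 1.72 ± 0.11 on the log2 scale (limma adjusted p = 0.0423), beside 0.0824% of all probe sets that passed in that direction. The dimmer of its 2 named probe sets was also higher and did not pass. By the brightest probe set of each, the other 4 genes did not pass. SMAD1, the factor that carries BMP signals to the ID genes, read 3057, 3001 and 3155 untreated and 2130.2, 2240 and 2089 with SHH. Its groups did not overlap, and the log2 difference was -0.51 ± 0.10 (limma adjusted p = 0.196, and 0.00262 with the intensity trend). The type II receptor BMPR2 lay at -0.38 ± 0.12 (limma adjusted p = 0.392), with all 3 of its named probe sets lower. A probe set had a name only through the authors' p in this same comparison. Nothing is therefore read from the agreement of named probe sets of BMPR2 or TGFBR3. TGFBR1, the type I receptor for TGF-beta, lay at -0.48 ± 0.11 (limma adjusted p = 0.264, and 0.0135 with the intensity trend). SMURF2, a ubiquitin ligase that acts on this pathway, lay at 0.34 ± 0.12 (limma adjusted p = 0.442, and 0.0826 with the trend).

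Secreted antagonists and modulators of BMP ligands had 8 named genes of 16, 4 higher and 4 lower. Noggin (NOG), which binds BMP ligands and blocks them, fell by 1.07 on the log2 scale (limma adjusted p = 0.0496), beside 0.0403% of all probe sets that passed as lower, and limma did not call the other 7 by the brightest probe set of each. The dimmer of the 2 named GREM1 probe sets did pass. With the intensity trend 7 of the 8 genes passed, beside 1.86% of all probe sets. The 8 had a name only through the authors' p in this same comparison, so nothing is read from that count. The crossveinless homologue BMPER lay at -1.03 ± 0.11, from 804 ± 50.0 untreated to 384 ± 25.3 with SHH (SD, n = 3; limma adjusted p = 0.0609). Gremlin 1 (GREM1) had a log2 difference of -0.97 ± 0.12 (limma adjusted p = 0.0729), follistatin (FST) of 0.69 ± 0.12 (limma adjusted p = 0.139) and chordin-like 1 (CHRDL1) of -0.57 ± 0.11 (limma adjusted p = 0.202). Neither call was kept without any single array, with a pseudocount of 1, or with the replicate number as a block (limma adjusted p = 0.434 for NOG and for TGFBR3). That of NOG was also lost after quantile normalization and median centring. Over all alternatives the limma adjusted p ran from 0.00154 to 0.434 for NOG and from 1.88e-05 to 0.434 for TGFBR3.

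Of 14 other genes known as direct targets of BMP-SMAD signalling RUNX2 alone had a name, with a log2 difference of -0.41 ± 0.15 (limma adjusted p = 0.463). SMAD6, SMAD7, BAMBI, MSX1 and MSX2, further genes of that list, had no name here. Among 12 genes that act on ID transcription or on ID protein stability 5 were named, of which 3 were higher and 2 lower. Limma called 0 of them, and 2 with the intensity trend, beside 1.86% of all probe sets. Nothing is read from that count, since the names rest on this same comparison. EGR1, an immediate early factor known to bind the ID1 promoter, read 2980.0, 2783 and 3108 untreated and 1761, 1872 and 1734 with SHH, a log2 difference of -0.72 ± 0.11 (limma adjusted p = 0.105, and 7.16e-04 with the intensity trend). ATF3, a stress factor known to repress ID1 in human epithelial cells, lay at 0.47 ± 0.11 (limma adjusted p = 0.266, and 0.0359 with the trend). EGR1 was thus lower and ATF3 higher in the cells in which ID1 was lower, and whether these differences are linked was not tested. SP1, a general activator that binds GC boxes, lay at 0.42 ± 0.15 (limma adjusted p = 0.439), and SMURF2, given above, is also in that list. Among 19 cell cycle genes downstream of ID proteins 3 had a name. The cyclin-dependent kinase inhibitor CDKN2B, CDK6 and cyclin D2 (CCND2) lay at 0.35 ± 0.10, 0.35 ± 0.12 and -0.38 ± 0.12 (limma adjusted p = 0.344, 0.423 and 0.396). With the intensity trend their limma adjusted p was 0.0184, 0.0600 and 0.0506.

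**Figure D3:**
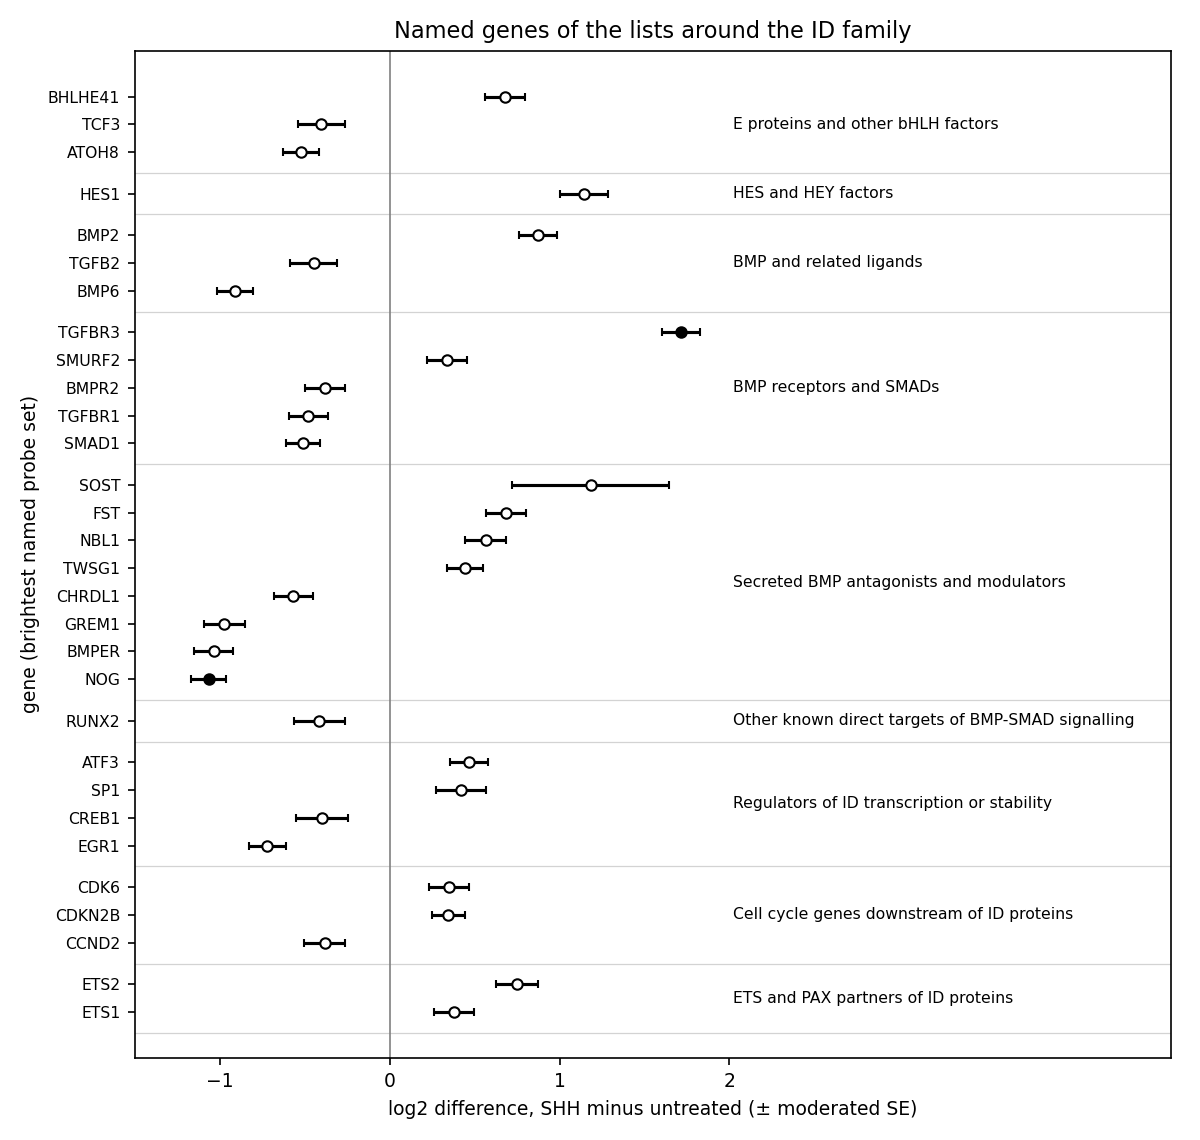
Log2 difference, SHH minus untreated, by the brightest named probe set (horizontal; bars are limma's moderated SE, n = 3 per group) for every named gene of the lists (vertical), grouped by list; SMURF2 is in 2 lists and is drawn once. Filled points passed limma's adjusted threshold, which held for TGFBR3 at 1.72 and NOG at -1.07, and open points did not; SOST, singled out after its value was seen, had a signal of 3.75 ± 1.91 in untreated cells (SD, n = 3).

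The median log2 difference was -0.45 over the 3 named ligands, -0.38 over the 5 named receptors and SMAD factors and -0.06 over the 8 named antagonists, where it was -0.24 over the 1645 named genes and -0.05 over all 54613 probe sets. None of these medians stands for a whole list, since unnamed members are left out. The 5 named fibroblast markers (among them COL3A1, DCN, FAP and S100A4) were all lower with SHH, with 0 of 5 past limma's threshold. COL3A1 and DCN each had 1 named probe set, which read only 395 ± 65.3 and 460 ± 64.3 untreated (SD, n = 3). Any other probe set of these genes with a larger authors' p has no name here, so the values do not stand for the whole gene. With the intensity trend 3 of the 5 markers passed, beside 1.86% of all probe sets. Nothing is read from that count, since the markers were named by their difference in this comparison. Their summed signal ran from 8269 to 9160 on the untreated arrays and from 5694 to 6203 on the SHH arrays. The largest part of that sum was PDGFRB, the brightest of the 5, at 4690 ± 402 untreated and 3400 ± 309 with SHH (SD, n = 3). The part of these markers in the lower ID1, ID3 and ID4 signals was not tested. The 2 named smooth muscle markers lay on opposite sides of 0. The smooth muscle myosin MYH11 went from 786 ± 93.0 to 1526 ± 214 (SD, n = 3), a log2 difference of 0.94 ± 0.16 (limma adjusted p = 0.131, and 0.00304 with the intensity trend), and calponin (CNN1) from 6335 ± 689 to 5160.2 ± 264, a difference of -0.29 ± 0.13 (limma adjusted p = 0.538), so that their sum, between 6625 and 7832 untreated and between 6286 and 7195 with SHH, mostly follows the brighter CNN1 probe set. Of the markers of other cell types, the epithelial keratin KRT18 lay at -0.42, the neuronal UCHL1 at 0.67, the immune CD14 at 0.73, and KIT and ANO1 of interstitial cells of Cajal at -0.44 and 0.40. None of these passed limma's threshold, and KRT18, UCHL1 and KIT did with the intensity trend (limma adjusted p = 0.0202, 5.89e-04 and 0.0126). Their part in the ID signals was not tested either.

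The named genes nearest to each ID gene were found by the root mean square difference over the 6 arrays between profiles of log2(signal + 16), each minus its own mean. Nearest to ID1 were LRRN3, a leucine-rich membrane protein, FUT4, a fucosyltransferase, and ATP8B4, a lipid flippase, at 0.05, 0.06 and 0.07 log2 units. Nearest to ID2 were AMPD2, an AMP deaminase, PCYOX1, a prenylcysteine oxidase, and the ribonucleotide reductase subunit RRM2, at 0.04, 0.05 and 0.07. Nearest to ID3 were the adhesion receptor ADGRA2, WDTC1 and the stress gene GADD45A, each at 0.02 to 0.03. Nearest to ID4 were genes listed as KIAA0773 and MGC39325, at 0.06 and 0.11, and PAPPA, a protease of insulin-like growth factor binding proteins, at 0.10. Log2 differences of the genes nearest to ID1 ran from -0.86 to -0.81, and those nearest to ID2 from 0.50 to 0.61. No ID gene was counted as a neighbour. At most 7 other probe sets, named or not, lay nearer than any gene named. The order rests on small distances: of these 12 neighbours, 7 were again among the nearest 3 with a pseudocount of 64 and 5 after quantile normalization.

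**Figure D4:**
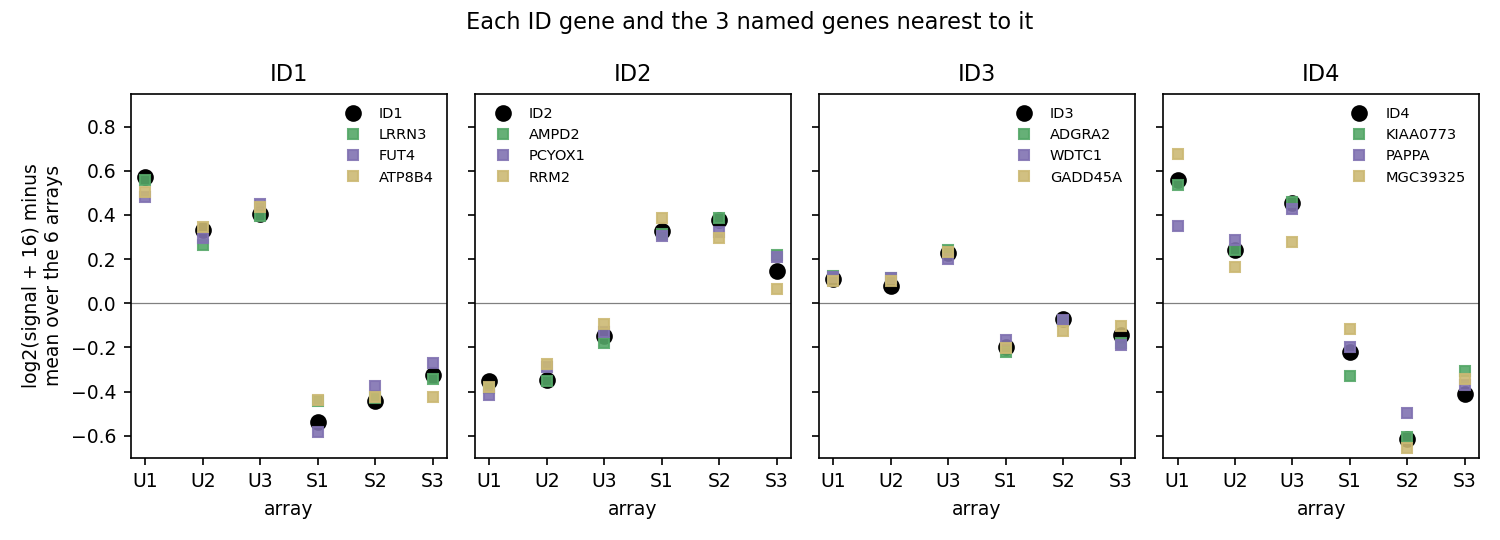
Log2(signal + 16) minus its mean over the 6 arrays (vertical) on each array (horizontal; U1 to U3 untreated and S1 to S3 SHH replicates 1 to 3) for the brightest probe set of each ID gene (black circles) and its 3 nearest named genes (coloured squares). The arrays of the groups lie on opposite sides of 0 in each panel, with the smallest step for ID3 at -0.28 and the only step upward for ID2 at 0.57.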

How the data were processed

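Total RNA of 6 cultures was made into biotin-labelled cRNA from an oligo(dT) primer and hybridised to Affymetrix arrays, per the labels' protocols. Groups and replicate numbers come from the sample titles. Per array, the deposited table lists 1 intensity for each probe set. Trimmed means (2% from each end) lie between 498.1 and 498.2, so the arrays appear scaled to a common level by the authors, with image analysis, probe summary and genome build not given in the sources used here. Per the readme, the authors' deposited table of a Cyber-T test holds a t statistic (a score), p-value, q-value and log2 fold change, with the direction untreated minus SHH per the file headers, turned here. The 30 array columns of the authors' other deposited tables hold the same intensities (within 0.001).

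Names came from the authors' deposited list of 2411 probe sets, updated through RefSeq synonyms (1470 current, 422 updated, 260 kept), where 1 symbol was given without disagreement (2152 probe sets). The brightest named probe set stands for a gene. Limma 3.58.1 in R 4.3.3 was fitted to log2(intensity + 16) over all 54613 probe sets (lmFit, eBayes, two-sided, Benjamini-Hochberg, threshold 0.05) without a filter, and tested on simulated data. Other values were computed in Python 3.11.15 (pandas 2.3.3, numpy 2.4.6). In each list the text names the members that passed and up to 4 others by smallest p, all named ID probe sets, the 3 nearest genes of each ID gene, and PTCH1 and GLI1. Members and lists were chosen with earlier results of these data known. The design text calls the replicates biological and names no batch. Limma's p-values set the difference between the groups against the spread within them, here between cultures of a single line.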

Additional observations from a re-analysis of the deposited data

How the results depend on the processing

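All 4 ID genes kept their direction under every alternative tried, which was in part fixed beforehand. The members were chosen by their difference and their groups did not overlap, so leaving out 1 array could not turn a direction. With equal groups, the replicate block cannot change a difference either. The values below are therefore a description. Of 52 values under alternatives, 49 moved by less than 1 pooled SD and 3 by more: ID2 was 0.91 by its dimmer probe set and 0.74 by the mean of both, and ID3 was -0.19 with arrays centred on their medians. Leaving out 1 array at a time gave -0.93 to -0.80 for ID1, 0.52 to 0.64 for ID2, -0.31 to -0.23 for ID3 and -0.93 to -0.73 for ID4. By calls, 1 of the 6 ID probe sets passed limma with a pseudocount of 64 (beside 0.54% of all) and 3 of 6 among probe sets with a mean signal of 100 or more (beside 1.95%).

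Over all probe sets, limma called 67; with a pseudocount of 1 it called 0 (5009 at an unadjusted p under 0.05), with 64 it called 295, with median centring 34, with the intensity trend 1014 and with the filter at a mean signal of 100 it called 537 of 27538. Of the named genes of the lists, 2 passed, and 0, 8, 1, 19 and 14 under the same settings in that order, and 1 (TGFBR3) after quantile normalization. Those genes had a name only through the authors' p in this same comparison, so nothing is read from their counts. With any 1 array left out the counts were 0 for all probe sets (4411 to 5180 at an unadjusted p under 0.05) and 0 for the lists. The cause of these shifts was not tested. With the replicate number as a block, limma called 0 of all probe sets (4746 at an unadjusted p under 0.05) and 0 of the lists. Over all probe sets, same-numbered arrays did not deviate together (correlations of deviations of 0.01, 0.02 and -0.01). The labels do not say whether such arrays share a day or batch. Correlations over all probe sets, many of them dim, cannot decide that. Of the 12 nearest genes, 7 and 5 stayed under the 2 alternatives tried.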
